A study of Mus musculus with 24 samples.

Results

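MHC class II genes encode the proteins that display peptides to CD4+ T cells. Of the 55421 genes in the count table, 7 were taken by name: H2-Aa, H2-Ab1, H2-Eb1, Cd74, H2-DMa, H2-DMb1 and Ciita. Their transcripts were followed in hepatocytes isolated from 24 male mice, 6 in each of 4 groups. YND mice were 6-month-old C57BL/6N mice on a normal diet (ND), which the labels name as a Teklad chow, and YHFD mice were the same age and strain on a high-fat diet (HFD). OND mice were 24-month-old C57BL/6J mice on ND, and OHFD mice were the same age and strain on HFD. HFD supplied 60% of energy as fat, and all 4 groups were on their diet for 9 weeks. Age and substrain cannot be told apart, since all young mice were of 1 substrain and all old mice of the other. Ages, substrain and control diet are given as in the labels, from which the published description differs. Hepatocytes were released by 2-step liver perfusion and enriched over Percoll, and no label or method describes a sort that would remove immune cells. In such preparations, fewer cells of a type and less RNA per cell cannot be told apart.

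Libraries came in 2 batches, named in the labels, with 3 mice of each group in each batch except for OND, which had 2 mice in batch 1 and 4 in batch 2. Reads counted on genes ranged from about 15135000 to 22185100 per mouse in YND, from 15458200 to 17807900 in YHFD, from 13692800 to 17676900 in OND and from 9200330 to 13517600 in OHFD. The library of OHFD replicate 2 stood apart, with 12284 of the 13583 tested genes detected, where the other 23 libraries had 13051 to 13566. Its H2-Aa, H2-Ab1, H2-Eb1 and Cd74 values lay within the range of the other OHFD mice, and results that change without it are given with both values. Hepatocyte markers, such as Alb (albumin), were high in all groups, and the 6 markers summed to 41723 to 154190 CPM per mouse, where CPM are counts scaled to a common library size.

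MHC class II molecules are pairs of an alpha and a beta chain that carry peptides taken up from outside the cell. Dendritic cells, B cells and macrophages, including the Kupffer cells of the liver, are the classical carriers, and hepatocytes at rest are known for little or no class II. H2-Aa and H2-Ab1 encode the alpha and beta chains of the I-A molecule, and H2-Eb1 encodes the beta chain of I-E. Cd74 is the invariant chain, which holds the binding groove until the endosome. H2-DMa and H2-DMb1 encode the chains of H2-DM, which exchanges the remnant of the invariant chain for peptide. Ciita is the coactivator that switches on the whole set and is itself induced by interferon gamma. Ptprc encodes CD45, a surface protein of nearly all leukocytes, and serves here as the measure of immune cells carried over with the hepatocytes.

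In the GRCm38 annotation, H2-Aa lies at chr17:34282744-34287823 on the minus strand. On the plus strand of the same chromosome are H2-Ab1 at chr17:34257689-34269419, H2-Eb1 at chr17:34305867-34316674, H2-DMa at chr17:34119541-34139101 and H2-DMb1 at chr17:34153072-34160230. Ciita lies at chr16:10480059-10528418, and Cd74 is on a further chromosome. All 7 are protein-coding. Promoter sequences of 4 members, H2-Aa, H2-Eb1, H2-DMa and H2-DMb1, were taken from RefSeq on GRCm38.p6, and those of the other members were not analysed here.

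Class II promoters share an X box, bound by the RFX complex, and a Y box, bound by NF-Y, and Ciita acts through the proteins assembled there. The 150 bases before the RefSeq start are shown for the 3 members with a core match there, since shared boxes of this kind are what Ciita acts through. For H2-DMb1 the RefSeq start lies downstream of the start of the gene given above, so most of its stretch falls within that gene's span. Capitals mark the Y box core ATTGG (also CCAAT, the same core read on the other strand) and the X1 box core AGNNACNGA, both searched on both strands, and each sequence is read 5′ to 3′ along the gene.
H2-Aa, chr17:34287824-34287973, minus strand: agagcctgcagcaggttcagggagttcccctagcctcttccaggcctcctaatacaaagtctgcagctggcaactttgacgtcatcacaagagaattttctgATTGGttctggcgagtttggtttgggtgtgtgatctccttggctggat
H2-Eb1, chr17:34305717-34305866, plus strand: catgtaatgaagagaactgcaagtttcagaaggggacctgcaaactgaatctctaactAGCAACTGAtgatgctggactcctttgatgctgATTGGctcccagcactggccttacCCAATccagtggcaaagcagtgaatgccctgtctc
H2-DMb1, chr17:34153041-34153190, plus strand: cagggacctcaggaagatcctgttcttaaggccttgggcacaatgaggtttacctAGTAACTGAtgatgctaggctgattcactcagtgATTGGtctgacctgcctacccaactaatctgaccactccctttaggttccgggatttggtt

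H2-Eb1 and H2-DMb1 held an X1 core followed by a Y core, with 24 and 25 bases between them. H2-Aa held the Y core within CTGATTGG at position -51 from the start, and no match to the X1 letters in this window. H2-DMa, with 2 RefSeq promoters, had no match in these 150 bases of either, and ATTGG at position -198 of 1 of them. Both stretches (chr17:34122682-34122831 and chr17:34125368-34125517) lie within the span of H2-DMa given above. The bases before the gene start given there were not searched. Of 32851 RefSeq promoters of the same 300 bases, 37.4% held ATTGG, 4.10% held CTGATTGG, which contains it, and 17.7% held the X1 core. An X1 core followed by a Y core within 10 to 40 bases was found in 0.219%. These matches describe letters only.

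Class II transcripts were scarce in YND hepatocytes and higher in the other groups, with wide spread between mice. Summed over the 7 genes, YND mice had 2.48 to 21.7 CPM (median 9.79). YHFD mice had 12.8 to 158.1 CPM (median 55.0), OND mice 25.3 to 434.6 CPM (median 139.0) and OHFD mice 27.5 to 386.8 CPM (median 112.5). All OND and OHFD mice were above all YND mice in this sum, while OND, OHFD and YHFD overlapped. The order of the group medians was OND, OHFD, YHFD, YND for H2-Aa, H2-Ab1, H2-Eb1, Cd74 and Ciita, and the same for Ptprc. H2-DMa had its highest median in OHFD and H2-DMb1 in OND, and YND was lowest for both.

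Cd74 supplied the largest share of the class II counts, with a mean of 44.9% ± 8.65 (SD, n = 6) in YND, 43.1% ± 5.28 in YHFD, 43.7% ± 5.67 in OND and 37.5% ± 6.33 in OHFD. Per kilobase of mRNA, the median level in OND was 39.0 CPM for Cd74, 26.3 for H2-Aa, 19.1 for H2-Ab1 and 15.2 for H2-Eb1. On the same scale it was 1.23 for H2-DMb1, 0.936 for H2-DMa and 0.382 for Ciita, with Ptprc at 1.35. The surface chains and the invariant chain thus had the highest levels per length, and the peptide exchange factor and the coactivator the lowest.

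**Figure D1:**
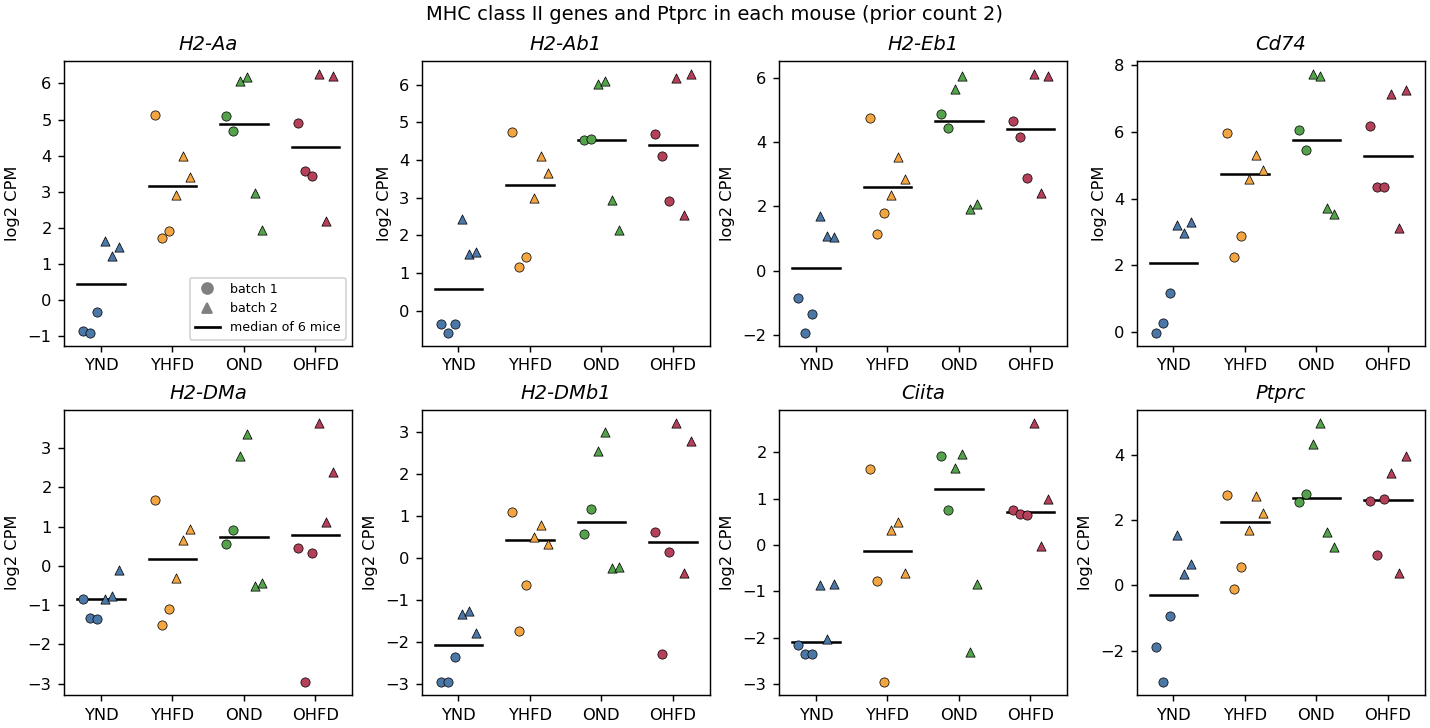
Log2 CPM (prior count 2, vertical axis) of the 7 MHC class II genes and Ptprc in each of 24 mice by group, with circles for batch 1, triangles for batch 2 and a bar at the median of 6 mice. The 3 YND mice of batch 1 are the lowest of all for H2-Aa, H2-Ab1, H2-Eb1, Cd74 and Ptprc, and OND and OHFD span several log2 units.

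The age comparison on ND asked how class II transcripts differ between old and young mice without a dietary stress. H2-Aa had 0.403 to 2.96 CPM in YND (median 1.42) and 3.67 to 72.5 CPM in OND (median 29.6). All 6 OND mice were above all 6 YND mice. The log2 fold change was 4.51 (SE 0.81, edgeR adjusted p = 0.00318), 5.91 within batch 1 and 3.85 within batch 2. Cd74 had 0.851 to 9.68 CPM in YND (median 4.93) and 11.5 to 213.5 CPM in OND (median 54.9), again without overlap. Its log2 fold change was 4.21 (SE 0.81, edgeR adjusted p = 0.00362).

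H2-Ab1 (log2 fold change 3.92) and H2-Eb1 (4.48) rose as well, and H2-Ab1 overlapped between the groups. H2-DMb1 rose by 4.44 with edgeR adjusted p = 0.00382, from a YND range of 0 to 0.286 CPM to an OND range of 0.715 to 7.84 CPM. A count of 0, as in YND replicates 1 and 2, allows up to 0.142 and 0.201 CPM there. Ciita had 0.0663 to 0.428 CPM in YND and 0.0715 to 3.76 CPM in OND, with a log2 fold change of 3.34 (edgeR adjusted p = 0.0158). H2-DMa changed least, by 2.67, and its call was the closest to the threshold (edgeR adjusted p = 0.0449). That call was lost without any 1 of 13 of the 24 mice, and the log2 fold change over all 24 such fits was 2.23 to 2.89.

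All 7 members were called higher in OND than in YND, where 8.50% of all tested genes were called in either direction. Their median log2 fold change was 4.21, against 0.01 over all tested genes. All OND mice exceeded all YND mice for 4 members, which held for 2.08% of tested genes. The calls were lost without the YND mice of batch 1. Without these 3, all 7 fold changes stayed positive (H2-Aa 3.92, edgeR adjusted p = 0.147) but 0 of 7 members and 0 genes in all were called. The part of these mice and that of a smaller YND group cannot be told apart, since no fit left out only the YND mice of batch 2. Ptprc moved with the class II genes, from 0 to 2.81 CPM in YND (median 0.772) to 2.14 to 31.4 CPM in OND (median 6.35), a log2 fold change of 3.53 (SE 0.72, edgeR adjusted p = 0.00462).

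The diet comparison in young mice gave smaller differences of the same direction. H2-Aa had 3.16 to 34.6 CPM in YHFD (median 8.97), with every YHFD mouse above every YND mouse, and a log2 fold change of 3.24 (SE 0.80, edgeR adjusted p = 0.0282). H2-DMb1 (3.35), H2-Eb1 (3.05), Cd74 (2.82) and H2-Ab1 (2.69) were also called higher, with edgeR adjusted p between 0.0366 and 0.0468. Within batches, the Cd74 difference was 4.22 in batch 1 and 1.82 in batch 2. Ciita differed by 2.42 (edgeR adjusted p = 0.103) and H2-DMa by 1.64 (edgeR adjusted p = 0.253), which did not pass. Thus 5 of 7 members were called, where 3.50% of tested genes were, and the median over the members was 2.82. The only member without overlap was H2-Aa, and 1.77% of tested genes showed such a separation.

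These calls in young mice were fragile. Leaving out single mice left between 0 and 5 members called, and any of YND replicates 1, 2, 3 and 5 or YHFD replicates 1 and 5 was enough to bring the number to 0. Ptprc differed by 2.23 between YHFD and YND (SE 0.72, edgeR adjusted p = 0.0773). YHFD replicate 1 was the highest young mouse for all 7 members and for Ptprc, with 34.6 CPM of H2-Aa and 6.78 CPM of Ptprc.

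In old mice no difference between the diets was detectable. H2-Aa had 4.40 to 76.5 CPM in OHFD (median 20.7), a range almost the same as that of OND. The log2 fold change between OHFD and OND was -0.04 (SE 0.66, edgeR adjusted p = 0.982) for H2-Aa and -0.30 (SE 0.69, edgeR adjusted p = 0.85) for Cd74. Of the 7 members, 0 were called between OHFD and OND by edgeR, where 3.01% of tested genes were called. DESeq2 also called 0. By edgeR, an unadjusted p under 0.05 was found for 0 members and for 2990 of the 13583 genes. The batches ran opposite ways, with -0.81 in batch 1 and 0.47 in batch 2 for H2-Aa. The same split, lower in batch 1 and higher in batch 2, was found for 6 of the 7 members, and Cd74 was -0.58 and -0.11. Whether the batches differ was not tested. The SE of these values was close to that of the other comparisons, so a moderate difference would not have been detectable.

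Within HFD, OHFD was above YHFD by 1.23 on the log2 scale for H2-Aa (SE 0.69, edgeR adjusted p = 0.311) and by 1.09 for Cd74 (edgeR adjusted p = 0.382). None of the members passed, and 2.24% of tested genes were called. An unadjusted p under 0.05 was found for 1 member and for 2848 of the 13583 genes. OHFD compared with YND, which differ in both age and diet, gave 7 of 7 members higher, against 30.2% of tested genes called, with a median log2 fold change of 4.04. For H2-Aa it was 4.47 (SE 0.81, edgeR adjusted p = 0.000624). Ptprc was also higher, by 3.01 (edgeR adjusted p = 0.00408), as were 10 of 11 macrophage markers and 6 of 6 endothelial markers, while of 6 hepatocyte markers 2 were lower and 1 was higher. Here 4 members (H2-Aa, H2-Ab1, H2-Eb1 and Ciita) were higher in all OHFD than in all YND mice, as were 2.99% of tested genes. These comparisons share the YND mice. Without the YND mice of batch 1, 4 of 7 members were called, and Cd74, H2-DMa and Ciita did not pass. Batch 1 alone gave 4 and batch 2 alone 3.

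The age by diet interaction asks whether the diet difference depended on age. It was -3.28 for H2-Aa (SE 1.04) and -3.11 for Cd74 (SE 1.04), meaning a smaller diet difference in old than in young mice. Neither passed (edgeR adjusted p = 0.531 for each), and 0 of 7 members and 0% of all tested genes were called, while 6 members and 1247 of the 13583 genes had an unadjusted p under 0.05. Without a filter on low counts, 5 members were called, among 587 genes in all.

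Mice within a group differed far more in class II than in most genes. The within-group SD of log2 CPM had a median over the 7 members of 1.19 in YND, 1.29 in YHFD, 1.71 in OND and 1.64 in OHFD. Over all tested genes the median SD was 0.24, 0.29, 0.34 and 0.54, and for Ptprc the SD was 1.70, 1.19, 1.49 and 1.41. These SDs keep differences between batches in. Cd74 in YND, for example, had a mean of 1.35 CPM in batch 1 and 8.88 CPM in batch 2. OND replicates 3 and 4 had 411.1 and 434.6 CPM of summed class II transcripts, while OND replicates 5 and 6, from the same batch, had 33.2 and 25.3 CPM. OHFD replicates 4 and 6 had 386.8 and 383.7 CPM, while OHFD replicate 5 had 27.5 CPM.

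The 4 abundant genes moved together across these mice. The SD of the log2 ratio between any pair of H2-Aa, H2-Ab1, H2-Eb1 and Cd74 had a median of 0.53 in YND, 0.39 in YHFD, 0.41 in OND and 0.40 in OHFD, well below the SD of the genes themselves. The tightest pair in OHFD had an SD of 0.10. H2-DMa and H2-DMb1 departed from the others in OHFD replicate 2, with 0 and 1 counts beside 152 counts of H2-Aa and 261 of Cd74. A count of 0 for H2-DMa there allows up to 0.230 CPM, and this is the library that stood apart.

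Class II levels followed Ptprc from mouse to mouse, also within groups. Ranked by summed class II CPM and by Ptprc CPM, 20 of 24 mice fell within 3 ranks of each other in both orders. In a model of all genes with terms for group, batch and log2 CPM of Ptprc, the slope gives the change in log2 expression per log2 unit of Ptprc at a fixed group and batch. It was 1.14 for Cd74 (SE 0.10, edgeR adjusted p = 2.37e-08), 1.10 for H2-Aa (SE 0.10, edgeR adjusted p = 4.24e-08), 1.08 for H2-Eb1 and 1.02 for H2-Ab1. H2-DMb1 had a slope of 1.03, Ciita of 0.83 and H2-DMa of 0.79. All 7 members were called, against 7.51% of the 13582 genes tested, and Cd74 and H2-Aa ranked 8 and 9 by p among them.

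A slope near 1 means that a doubling of Ptprc came with about a doubling of the class II gene. Over all genes the median slope was 0.00. Without the YND mice of batch 1, all 7 slopes were still called, from 0.83 (Ciita) to 1.17 (Cd74), among 1904 genes in all. Within batch 1 alone the slopes were 0.76 (Ciita) to 1.34 (H2-DMb1), with 0.96 for H2-Aa (SE 0.19) and 1.04 for Cd74 (SE 0.20), but 0 of them and 0 of all genes were called by edgeR. Within batch 2 alone all 7 were called, among 2837 genes in all.

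**Figure D2:**
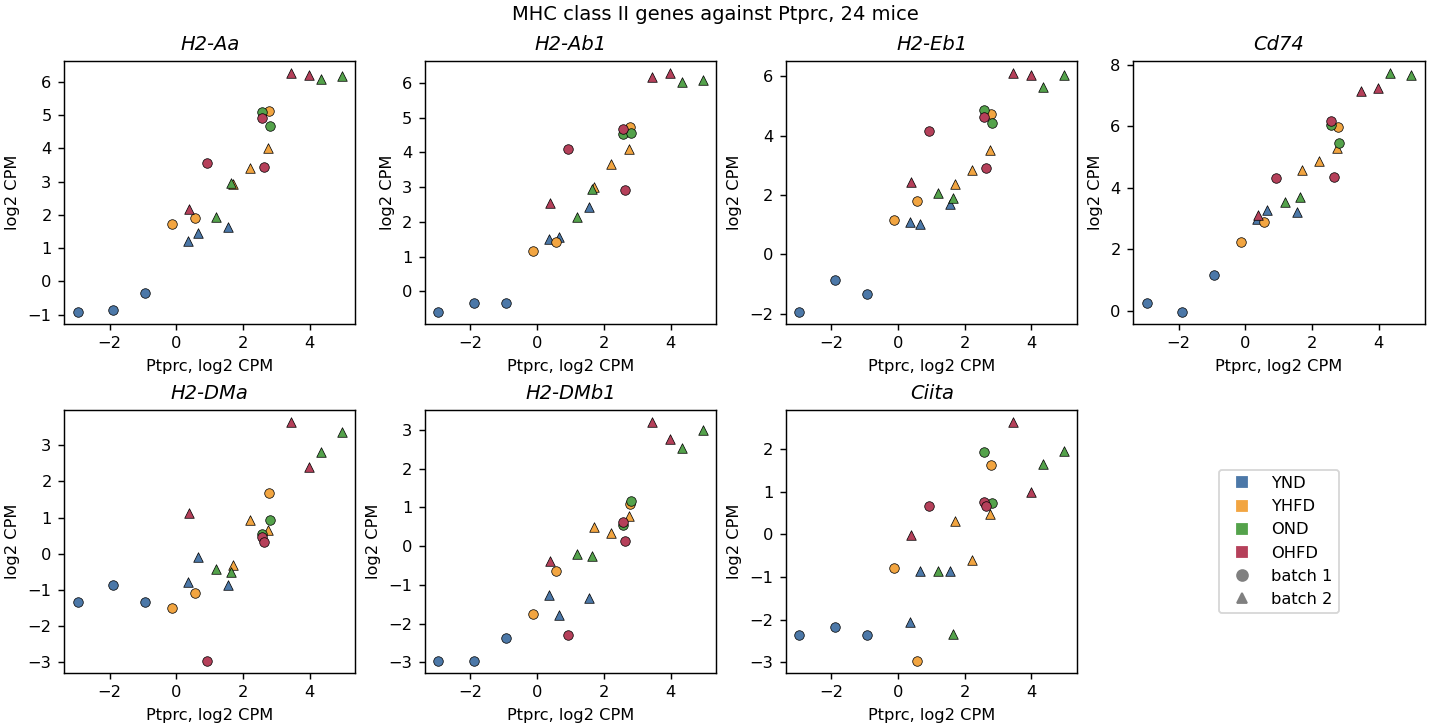
Log2 CPM of each MHC class II gene (vertical axis) against log2 CPM of Ptprc (horizontal axis), prior count 2, in 24 mice coloured by group, with circles for batch 1 and triangles for batch 2. Mice of all groups lie along a common rising band for H2-Aa, H2-Ab1, H2-Eb1 and Cd74, and OHFD replicate 2 falls below it for H2-DMa and H2-DMb1.

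At matched Ptprc, the differences from YND were smaller than without it. OND differed from YND by 0.72 for H2-Aa (SE 0.43), 0.44 for H2-Ab1 (SE 0.45), 0.78 for H2-Eb1 (SE 0.51) and 0.12 for Cd74 (SE 0.41) on the log2 scale. H2-DMb1 had the largest remaining value, at 1.16 (SE 0.61), and H2-DMa was the only member below 0, at -0.41 (SE 0.93). By edgeR, 0 of 7 members were called, where 9 of 13582 genes (0.0663%) were called. An unadjusted p under 0.05 was found for 0 members and for 529 of the 13582 genes. Both counts of 0 are near the shares over all genes. The median over the members was 0.47, compared with 4.21 without Ptprc in the model. DESeq2 called 0 of 7 as well. Ptprc differed between the same groups, so this model also takes away any group difference in class II that moves with Ptprc.

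YHFD differed from YND at matched Ptprc by 0.68 for H2-Aa (SE 0.38), 0.56 for H2-Eb1 and 0.11 for Cd74. The largest remaining difference was that of H2-DMb1, at 1.35 (SE 0.56, edgeR adjusted p = 0.321), which was also the member under 0.05 unadjusted. H2-DMa was again the only member below 0, at -0.46 (SE 0.81). None of the 7 was called (0.766% of tested genes were), 1 member and 1566 of the 13582 genes had an unadjusted p under 0.05, and the median was 0.53. Between OHFD and OND, 0 members were called (3.45% of tested genes were, member median 0.74), and 3 members and 3142 of the 13582 genes had an unadjusted p under 0.05. DESeq2 called 1 member, batch 2 alone gave 3, and the fit without OHFD replicate 3 gave 3. Between OHFD and YHFD, 0 members were called (2.26% of tested genes were, median 0.71), and 3 members and 2838 genes had an unadjusted p under 0.05. Here DESeq2 called 2 members, batch 2 alone gave 2, and the fit without OHFD replicate 3 gave 3. The interaction at matched Ptprc had 0 members called and 0% of all genes, with a member median of 0.30.

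Between OHFD and YND, 1 member, H2-Eb1, was higher at matched Ptprc, by 1.72 on the log2 scale (SE 0.47, edgeR adjusted p = 0.0365), where 5.32% of genes were called. The call was lost without OHFD replicate 2 (1.38, edgeR adjusted p = 0.137), and also without YND replicate 3, YND replicate 4, YND replicate 6, OND replicate 6 or OHFD replicate 5. It was also lost when the mean of the macrophage markers (1.46, edgeR adjusted p = 0.144) or of the other leukocyte markers (1.02, edgeR adjusted p = 0.197) replaced Ptprc. It was kept with the mean of the dendritic cell markers (2.43, edgeR adjusted p = 0.00475) and in batch 2 alone (1.73, edgeR adjusted p = 0.0119), and passed in 7 of 16 alternatives other than single mice left out. Only 4 of the 8 dendritic cell markers had enough counts for a test.

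**Figure D3:**
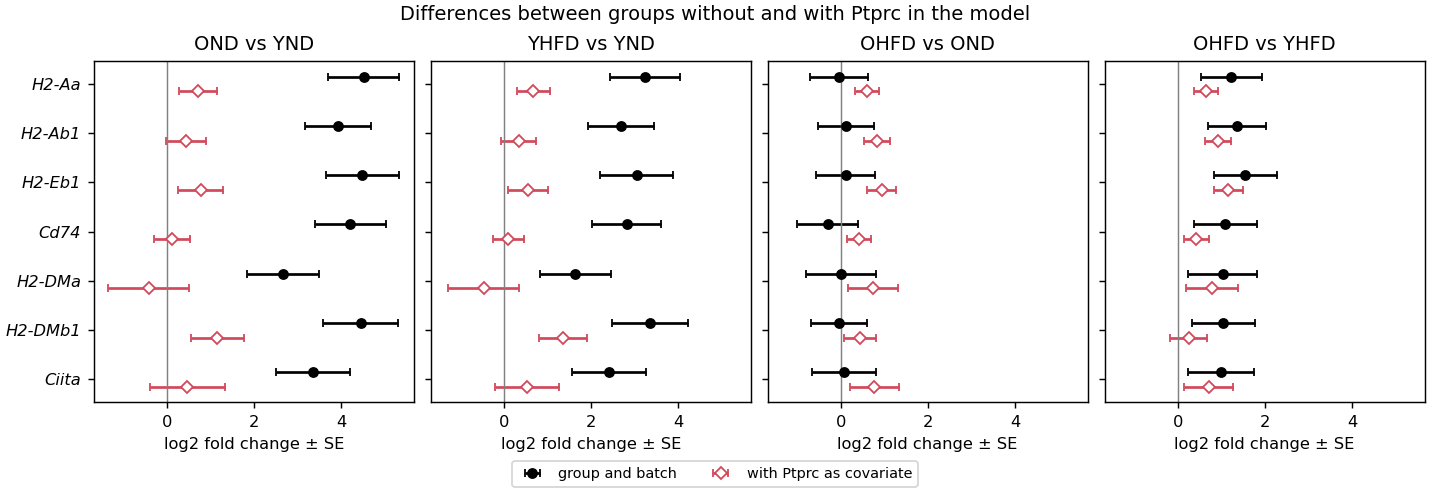
Log2 fold change ± SE (horizontal axis) of each MHC class II gene in 4 comparisons, from the model with group and batch (filled circles) and from the model with Ptprc as covariate (open diamonds), n = 6 mice per group. In OND vs YND and YHFD vs YND the diamonds lie far left of the circles, and in OHFD vs OND they lie to the right.

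The ratio of counts to Ptprc (0.5 added to each) was also taken mouse by mouse, as a description. H2-Aa had 1.06 to 13 counts per Ptprc count in YND (median 1.84), 2.32 to 5.08 in YHFD (median 2.51), 1.70 to 5.82 in OND (median 2.93) and 1.76 to 7.05 in OHFD (median 4.86). The YND maximum of 13 came from replicate 2, where Ptprc had 0 counts. Cd74 had medians of 5.94, 6.19, 6.42 and 10.4 in YND, YHFD, OND and OHFD. The groups overlapped in the ratios of H2-Aa and Cd74. H2-Ab1, H2-Eb1 and H2-DMb1 also had their lowest median ratio in YND. H2-DMa went the other way, with medians of 0.628, 0.288, 0.277 and 0.273 in YND, YHFD, OND and OHFD. Ciita had 0.270, 0.280, 0.181 and 0.418.

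Of 13583 tested genes, 119 had a Pearson r of at least 0.9 with the mean standardized profile of H2-Aa, H2-Ab1, H2-Eb1 and Cd74 over 24 mice, after the batch means were removed. Members of the profile have a high r by construction. Apart from them, the most alike included Sirpa, Cybb, Cd52, Spi1, Nckap1l, Tyrobp, Vcam1, Pkm and Laptm5, with r from 0.97 to 0.96. Ptprc stood at 0.95 (rank 29), H2-DMb1 at 0.92, Ciita at 0.89 and H2-DMa at 0.75. All of these genes share the libraries and their depth, so the values are descriptive. Pearson r and Spearman's rho were close, at 0.97 and 0.97 for Sirpa, and 0.95 and 0.93 for Ptprc.

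Other class II genes were rarer still. H2-Ob, the beta chain of H2-DO, which restrains H2-DM, had 3 counts in all YND mice together and 74 in OND, with a log2 fold change of 4.58 (edgeR adjusted p = 0.0121). H2-Eb2, H2-Oa and H2-DMb2 had too few counts for a test, with 0, 0 and 5 counts summed over YND and 20, 15 and 45 over OND. H2-DMb2 is a near copy of H2-DMb1, so reads may have been shared or lost between them, and the values of both are uncertain. H2-Ea-ps had 0 counts in all 24 mice, where 3 counts would be 0.142 to 0.322 CPM. C57BL/6 mice are known to lack a working I-E alpha gene, so the H2-Eb1 transcript has no partner chain in this strain.

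The factors that assemble on class II promoters are given for comparison. Rfx5, Rfxap and Rfxank make up the RFX complex, Nfya, Nfyb and Nfyc make up NF-Y, and Creb1 binds beside them. Of these 7, 0 were called between OND and YND by edgeR, with a median log2 fold change of -0.01. Rfxap had 11.5 ± 1.29 CPM in YND and 10.1 ± 1.54 CPM in OND (SD, n = 6 each), a log2 fold change of -0.21. Nfyc differed by -0.17. Nfyb was lower in YHFD than in YND (log2 fold change -0.43, edgeR adjusted p = 0.0482), and 0 of 7 had a slope on Ptprc that passed. With 8.50% of all genes called between OND and YND and 7.51% for the slope, 0 of 7 is near the share over all genes.

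Among the genes from interferon gamma to Ciita, Irf1, an activator of Ciita, rose between YND and OND by 0.90 (edgeR adjusted p = 0.00522), from 18.6 ± 1.80 to 34.4 ± 8.43 CPM (SD, n = 6 each). Its slope on Ptprc was 0.14 (edgeR adjusted p = 0.107) and did not pass. Ifngr1, a chain of the interferon gamma receptor, differed by 0.45 (edgeR adjusted p = 0.153), and its slope on Ptprc of 0.15 passed (edgeR adjusted p = 0.0483).

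Among 8 genes of the class II pathway that encode proteases, a thiol reductase and ubiquitin ligases, 3 were higher in OND than in YND (8.50% of tested genes were called). Ctss, the cathepsin that trims the invariant chain in professional presenting cells, rose by 3.94 (edgeR adjusted p = 0.00385), with a slope on Ptprc of 1.01. Lgmn (1.27) and Ifi30 (1.31) also rose, each with a slope of 0.36. The other 5 were not called, and 4 of the 8 had a slope that passed (7.51% of genes did). At matched Ptprc, 0 of the 8 were called between OND and YND by edgeR, with a median of -0.08. This count is near the 0.0663% of all genes called.

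Of 5 costimulatory genes tested, 3 were higher in OND than in YND, where 8.50% of tested genes were called. Cd86, a ligand of CD28, rose by 3.92 (edgeR adjusted p = 0.00936), Cd40, a receptor for T cell help, by 3.06 (edgeR adjusted p = 0.0223) and Cd274, which encodes PD-L1, by 1.77 (edgeR adjusted p = 0.00766). Cd274 was also the only one of the 5 called higher in YHFD than in YND (1.48, edgeR adjusted p = 0.0398), where 3.50% of tested genes were called. The slope on Ptprc passed for 2 of the 5, Cd86 (1.16) and Cd274 (0.37), and for 7.51% of genes. At matched Ptprc 0 of the 5 were called between OND and YND by edgeR, near the 0.0663% of all genes called.

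Markers of other cell types moved with the class II genes, and their part in the class II differences was not tested beyond the models with a covariate. Of 11 macrophage and Kupffer cell markers, 11 were higher in OND than in YND, where 8.50% of tested genes were called in either direction. Among them were the complement genes C1qc (3.71), C1qb (3.63) and C1qa (3.46). All 11 markers had a slope on Ptprc that passed (7.51% of genes did). The summed level of these 11 was 1.95 to 88.1 CPM in YND (median 28), 16.3 to 228.9 in YHFD (median 115.6), 58.0 to 1448 in OND (median 112.3) and 72.7 to 737.2 in OHFD (median 124.9). OND replicates 3 and 4 and OHFD replicates 4 and 6, the mice with the most class II, were also the 4 highest here. Of 8 leukocyte markers, 7 were higher in OND, Ptprc, Coro1a (3.59) and Laptm5 (3.49) included. Lcp1, singled out after its values were seen, was not called, and its mean of 110.0 ± 9.97 CPM in YND stood far above the other 7, at 0.491 to 1.53 CPM.

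B cell and dendritic cell markers were present at low levels. The 6 B cell markers summed to 0 to 0.630 CPM in YND and 0.857 to 5.96 CPM in OND. Cd79a had 0 counts in YND, and Cd22 (log2 fold change 5.89) and Cd79b (2.23) were higher in OND. Of the 8 dendritic cell markers, 4 had enough counts, and Itgax, which macrophages also carry, was higher in OND (4.78, edgeR adjusted p = 0.00865). They summed to 2.41 to 6.62 CPM in YND and 5.02 to 20.3 CPM in OND, most of it Zbtb46, and Cd209a had 0 counts in YND. The 8 T and NK cell markers summed to 0.464 to 2.55 CPM in YND and 1.07 to 10.1 CPM in OND. Of 6 hepatocyte markers, 0 were called by edgeR between OND and YND, which is near the 8.50% of all tested genes called. OND replicate 4, the mouse with the most class II, had the lowest hepatocyte marker sum, at 41723 CPM.

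Sinusoidal endothelial markers (4 of 6 higher in OND) and stellate cell markers (4 of 5) also moved the same way, where 8.50% of tested genes were called in either direction. Their median log2 fold changes were 1.52 and 1.99, and Stab2 (1.33) and Dcn (2.34) were among them. All 6 and all 5 had a slope on Ptprc that passed (7.51% of genes did). Endothelial markers summed to 10.1 to 106.1 CPM in YND and 29.4 to 572.6 CPM in OND. The median log2 fold change was 4.21 over the class II genes and 3.46 over the macrophage markers.

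Relative to the macrophage markers, class II had a higher median in batch 1 than in batch 2 in every group. The summed class II CPM divided by the summed macrophage marker CPM was 0.223 to 0.304 in YND, 0.292 to 0.467 in YHFD, 0.288 to 0.429 in OND and 0.264 to 0.683 in OHFD for mice of batch 2. In batch 1 it was 0.805 to 1.28 in YND, 0.491 to 1.22 in YHFD, 1.09 to 2.74 in OND and 0.340 to 1.70 in OHFD, the only group whose batches overlapped. These ratios are a description, with no test, and the cause of the batch difference was not tested.

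**Figure D4:**
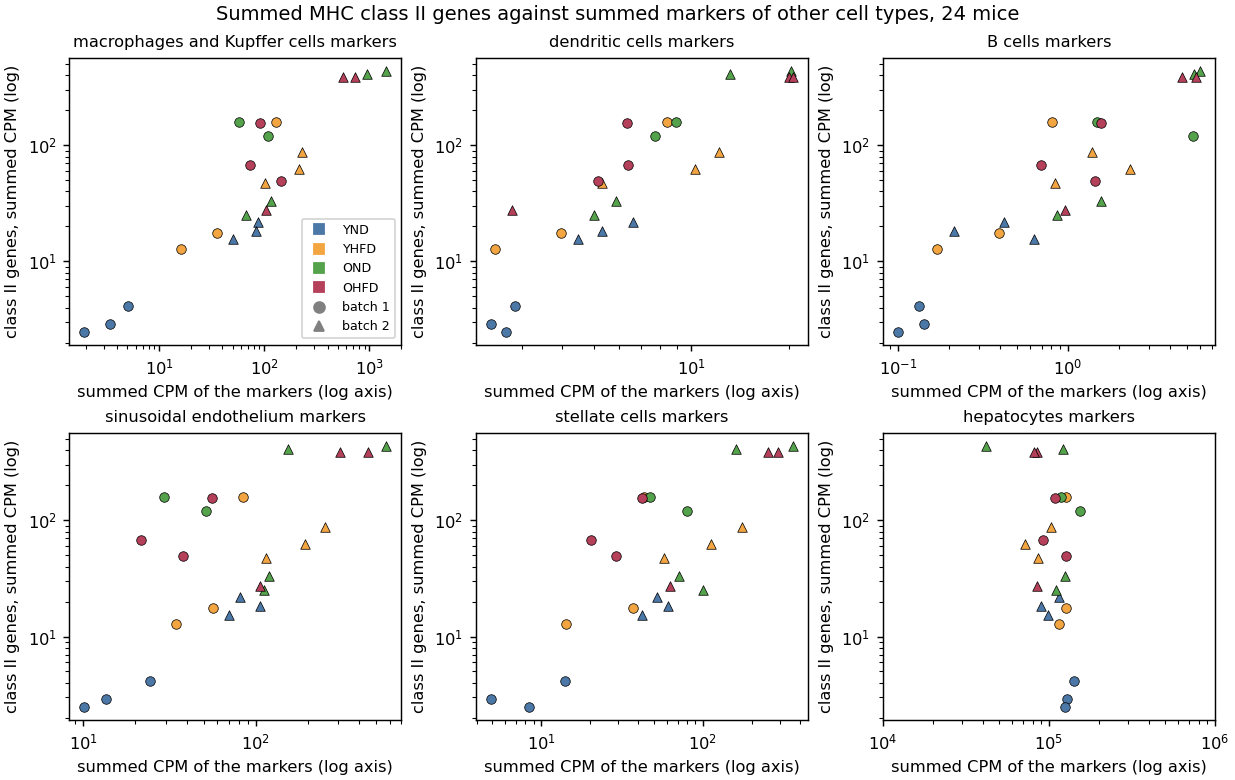
Summed CPM of the 7 MHC class II genes (vertical axis, log scale) against summed CPM of markers of 6 cell types (horizontal axes, log scale) in 24 mice, with circles for batch 1 and triangles for batch 2; the mouse with 0 CPM of B cell markers is drawn at 0.1. The 4 mice with the most class II also have the most macrophage markers, while hepatocyte markers stay between 41723 and 154190 CPM.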

How the data were processed

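RNA-seq libraries of polyA RNA from isolated hepatocytes of 24 mice were analysed. Per the labels and the study's methods, the authors aligned reads to mm10 with STAR 2.7.3a and GENCODE annotation, and deposited gene counts made with HTSeq 0.11.2. The authors also deposited FPKM values, made with Cufflinks; batch adjustment with ComBat is named only with that table. The log2 ratio of deposited FPKM to CPM followed log2 gene span (slope -1.04) rather than exon length (slope -0.01, both in 1 fit over 7301 genes), so levels between genes were instead compared as CPM per kilobase of mRNA, in place of the FPKM first planned. The members, gene lists and tests were chosen with earlier results of these data known.

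Counts were tested with edgeR 4.0.16 (R 4.3.3): TMM scaling, filterByExpr by group (13583 genes tested), the quasi-likelihood F test with group and batch over all 24 mice, and Benjamini-Hochberg adjustment over all genes at 0.05. SE is the absolute log2 fold change divided by the square root of F. A further fit added log2 CPM of Ptprc (prior count 2), which was left out of the genes tested and taken as known, without its counting error. Limits for counts of 0 (3 counts) cover counting error only. The labels number the mice within groups; same-numbered mice deviated together in 21 of 36 pairs only, so they were not taken as paired. Alternatives used DESeq2 1.42.0 and limma 3.58.1. Named genes were the 7 members, Ptprc, all other class II genes, the 3 smallest adjusted p between OND and YND in each other list, and the 10 most alike genes, plus those said to be chosen later; 2 of these genes are not reported here. The scripts were tested on simulated data.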

Additional observations from a re-analysis of the deposited data

Results flagged for a closer look

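In YND replicate 2 the log2 ratio of Cd74 to Ptprc counts (0.5 added to each) was 5.04, while the next of the 6 YND mice was at 2.72 and the lowest at 1.71. The gap to the nearest mouse was 0.695 of the whole range, above Dixon's critical value for 6 samples. That mouse had 0 counts of Ptprc and 16 of Cd74. Of 60 groups of values examined, this 1 stood out, and chance gives about 1 in 20.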

How the results depend on the processing

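Counts below are members called of 7, or of those tested where fewer were, with the number of all genes called in brackets where given. OND vs YND and OHFD vs YND had 7, YHFD vs YND 5 and the slope on Ptprc 7; at matched Ptprc, OHFD vs YND had 1 and the other comparisons 0. Leaving out each mouse in turn gave 6 to 7 for OND vs YND, 0 to 5 for YHFD vs YND, 6 to 7 for OHFD vs YND and 6 to 7 for the slope, and at matched Ptprc 0 to 3 each for OHFD vs OND, OHFD vs YHFD and OHFD vs YND.

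With DESeq2, matched Ptprc gave 1 for OHFD vs OND (1231), 2 for OHFD vs YHFD (812) and 3 for OHFD vs YND (1574), against 469, 307 and 723 genes by edgeR. With no filter on low counts, OHFD vs YHFD had 4 (1235) and the interaction 5 (587), and at matched Ptprc OHFD vs OND (1233), OHFD vs YHFD (1159) and OHFD vs YND (1805) had 3 each. With no batch term, YHFD vs YND had 0 (174) and OHFD vs YND at matched Ptprc 3 (1285). With the replicate block in place of batch, YHFD vs YND had 0 (283) and OHFD vs YND at matched Ptprc 0 (103), while OND vs YND kept a count of 7. The mice were not taken as paired by these numbers. With only the mice of the 2 groups, OHFD vs YND at matched Ptprc had 0 (36), with 6 members tested. By limma on log2(FPKM + 1), which tested 6 members, OND vs YND had 2 (150) and YHFD vs YND 0 (222); with 0.1 added, YHFD vs YND had 0 (278), or 1 at matched Ptprc (203), and OHFD vs YND at matched Ptprc 4 (1367); with no filter, OND vs YND had 0 (47), YHFD vs YND 0 (167), OHFD vs YND 4 (2279), or 0 at matched Ptprc (1023).

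In batch 1 alone, OND vs YND had 4 (93), YHFD vs YND 2 (130), OHFD vs YND 4 (919), or 0 at matched Ptprc (19), and the slope 0 (0). In batch 2 alone, OND vs YND had 0 (2), YHFD vs YND 0 (9) and OHFD vs YND 3 (617), and at matched Ptprc OHFD vs OND had 3 (79), OHFD vs YHFD 2 (74) and OHFD vs YND 3 (119). With other leukocyte, macrophage or B cell markers in place of Ptprc, OHFD vs YND had 0 (161, 198 and 1883); with dendritic cell markers it had 5 (2474), and YHFD vs YND 2 (309). Without the YND mice of batch 1, a setting chosen after seeing the data, OND vs YND had 0 (0), YHFD vs YND 0 (21), OHFD vs YND 4 (923), or 0 at matched Ptprc (89). The causes were not tested, beyond the fewer mice in these fits.

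Among the values recomputed under all settings, direction changed for these: H2-Aa in OHFD vs OND was 0.47 in batch 2 alone and -0.32 to 0.22 with single mice left out. At matched Ptprc, Cd74 in OND vs YND was -0.064 in batch 2 alone and -0.18 to 0.35 with single mice left out, and in YHFD vs YND -0.15 to 0.22. H2-DMa in OHFD vs YHFD, 1.03 with both batches, was -0.62 in batch 1 alone, and H2-DMb1, 1.05 with both, was -0.15. Low counts of H2-DMa, H2-DMb1, Ciita and Ptprc in YND limit their precision.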
